A study of Mus musculus with 32 samples.

Results

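The motile cilium genes are 39 genes whose products build, move or switch on the beating cilia of airway cells. They were chosen by name, not by a measured value, and all 39 were found among the 35275 genes of the deposited count table. Their levels were read from 32 RNA sequencing libraries of poly(A) RNA, each made from lung tissue of C57B/6 mice. In experiment 1 no mouse had surgery, and males and females spent 5 months in room air (3 libraries per sex) or cigarette smoke (5 libraries per sex). In experiment 2 every mouse was a female in cigarette smoke, with sham surgery or ovariectomy (removal of the ovaries). Lungs there were taken after 3 months (3 sham and 3 ovariectomized libraries) or 5 months (5 and 5), and no group of experiment 2 breathed room air. The labels give no age, and nothing in them says that each library is a different animal, so p-values measure the spread between libraries, which may be technical.

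A motile cilium is a whip-like projection built around a ring of microtubule doublets and a central pair. Dynein motors on the doublets, as outer and inner arms, slide them against each other, while radial spokes, the central pair and molecular rulers set the pattern of the beat. In the lung such cilia stand in rows on the multiciliated cells of the conducting airways, where they carry mucus out, and the alveolar wall has none. Foxj1 is the transcription factor that switches the programme on, together with RFX factors that bind the X-box sequence in front of ciliary genes.

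These genes varied together between libraries, as given further on, and their promoters were read for the X-box. RefSeq promoter windows (assembly GRCm38.p6) were matched for 31 of the 39 genes. The windows of Armc4, Dnaaf1, Dnah3, Foxj1, Lrrc6, Rsph1, Rsph4a and Tppp3 were not used here. An X-box is a pair of short sites, searched here on both strands of the 250 bases before the gene start as GTNNCC and GNAAC with a spacer of 2 bases (the shorter form) or 3 bases (the longer form), where N is any base. The shorter form was in the windows of 4 of the 31 genes (12.9%), against 1.54% of 27025 genes, where a gene with several windows counts once. The longer form was in 6 (19.4%, against 2.07%), and either form was in 10 (32.3%, against 3.56%). The single site GTTGCC was in front of 11 genes (35.5%, against 11.8%), and some of these matches lie inside a full motif. The motifs were chosen with results on these genes known, and a match describes the letters only. The stretches below belong to 5 genes of different parts of the cilium and read 5′ to 3′ in the direction of the gene, with the match in capitals:
Spag16 (central pair, chr1:69826849-69826898, plus strand, match starting 103 bases before the gene start): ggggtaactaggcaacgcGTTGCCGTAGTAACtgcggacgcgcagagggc
Hydin (central pair, chr8:110266938-110266976, plus strand, 21 bases before): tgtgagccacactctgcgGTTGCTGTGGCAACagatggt
Dnaic2 (outer dynein arm, chr11:114727368-114727416, plus strand, 33 bases before): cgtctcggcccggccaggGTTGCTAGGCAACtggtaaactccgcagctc
Dnah9 (outer dynein arm, chr11:66168603-66168651, minus strand, 82 bases before): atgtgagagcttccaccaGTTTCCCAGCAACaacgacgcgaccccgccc
Ccdc151 (outer arm docking, chr9:22002637-22002686, minus strand, 34 bases before): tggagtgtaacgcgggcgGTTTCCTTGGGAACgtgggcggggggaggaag
The 10 genes with either form were Ccdc114, Ccdc151, Ccno, Dnah9, Dnaic1, Dnaic2, Hydin, Spag16, Tekt2 and Tekt4. They include Ccno as the only regulator, and genes of the outer dynein arm, its docking, the central pair and tektins. None of the inner dynein arm, arm assembly, ruler or radial spoke genes with a window had either form.

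Total counts ran from 13790052 to 24497332 per library. The lowest correlation between libraries of a group, over log2 CPM of all genes, was 0.976, and no library was a copy of another. All 39 genes passed the filter on low counts in both experiments. In 7 libraries the liver gene Alb was above 100 CPM (male air 1, female air 2, ovariectomy at 3 months 2 and 3, sham at 5 months 1 and 2, ovariectomy at 5 months 5). Comparisons are given without these libraries where that moved them.

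The 39 genes are 4 regulators (Foxj1, Rfx2, Rfx3, Ccno), 5 outer dynein arm genes (Dnah5, Dnah9, Dnah11, Dnaic1, Dnaic2), 3 that dock that arm (Ccdc114, Ccdc151, Armc4) and 8 inner arm heavy chains (Dnah1, Dnah2, Dnah3, Dnah6, Dnah7a, Dnah7b, Dnah10, Dnah12). The others are 3 assembly factors (Dnaaf1, Lrrc6, Zmynd10), Ccdc39, Ccdc40 and Ccdc113, 3 radial spoke genes (Rsph1, Rsph4a, Rsph9), 5 central pair genes (Spag6, Spag16, Spag17, Spef2, Hydin), 3 tektins (Tekt1, Tekt2, Tekt4), Ak7 and Tppp3. Most of the genes were scarce in whole lung. On the length-corrected scale of the deposited TPM, the mean over 32 libraries had a median of 4.85 TPM over 38 genes, with Foxj1 highest among these at 41.0 TPM. Tppp3, which encodes a tubulin-binding protein, stood apart at 798 TPM. Among structural parts the radial spoke gene Rsph1 had a mean of 34.5 TPM, while the inner dynein arm genes reached at most 4.67 TPM and Dnah7a, the lowest, had 0.543 TPM. Dnah7a and Dnah7b share 54.2% and 40.0% of their transcript 31-base words with other genes, so their counts are uncertain. Dnah11, Dnaic1, Dnaaf1, Ccdc39, Rsph9 and Spag17 overlap an expressed gene on the other strand, and whether the counting used strand is not given in the sources used here. The gene listed as Spag6 lies on chromosome 16 and is named Spag6l in GENCODE M21.

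The genes varied widely between libraries. Levels here and below are CPM, counts scaled to library size, here by TMM over all 32 libraries. The ratio of the highest to the lowest library had a median of 12.5 over the 39 genes, and it exceeded 5-fold in 32 of them. By role, the median ratio was 13.6 for the 5 outer arm genes, 11.98 for the 8 inner arm genes, 18.3 for the 3 assembly factors, 11.9 for the 3 radial spoke genes and 14.03 for the 5 central pair genes. The regulators were less alike: Foxj1 varied 13.9-fold and Ccno, which drives the multiplication of basal bodies, 11.96-fold, but the RFX factors Rfx2 and Rfx3 only 1.88-fold and 3.01-fold. Tppp3 varied 2.13-fold. The widest ratio, 91.7 for Spag17, rests on a library with 2 counts.

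**Figure D1:**
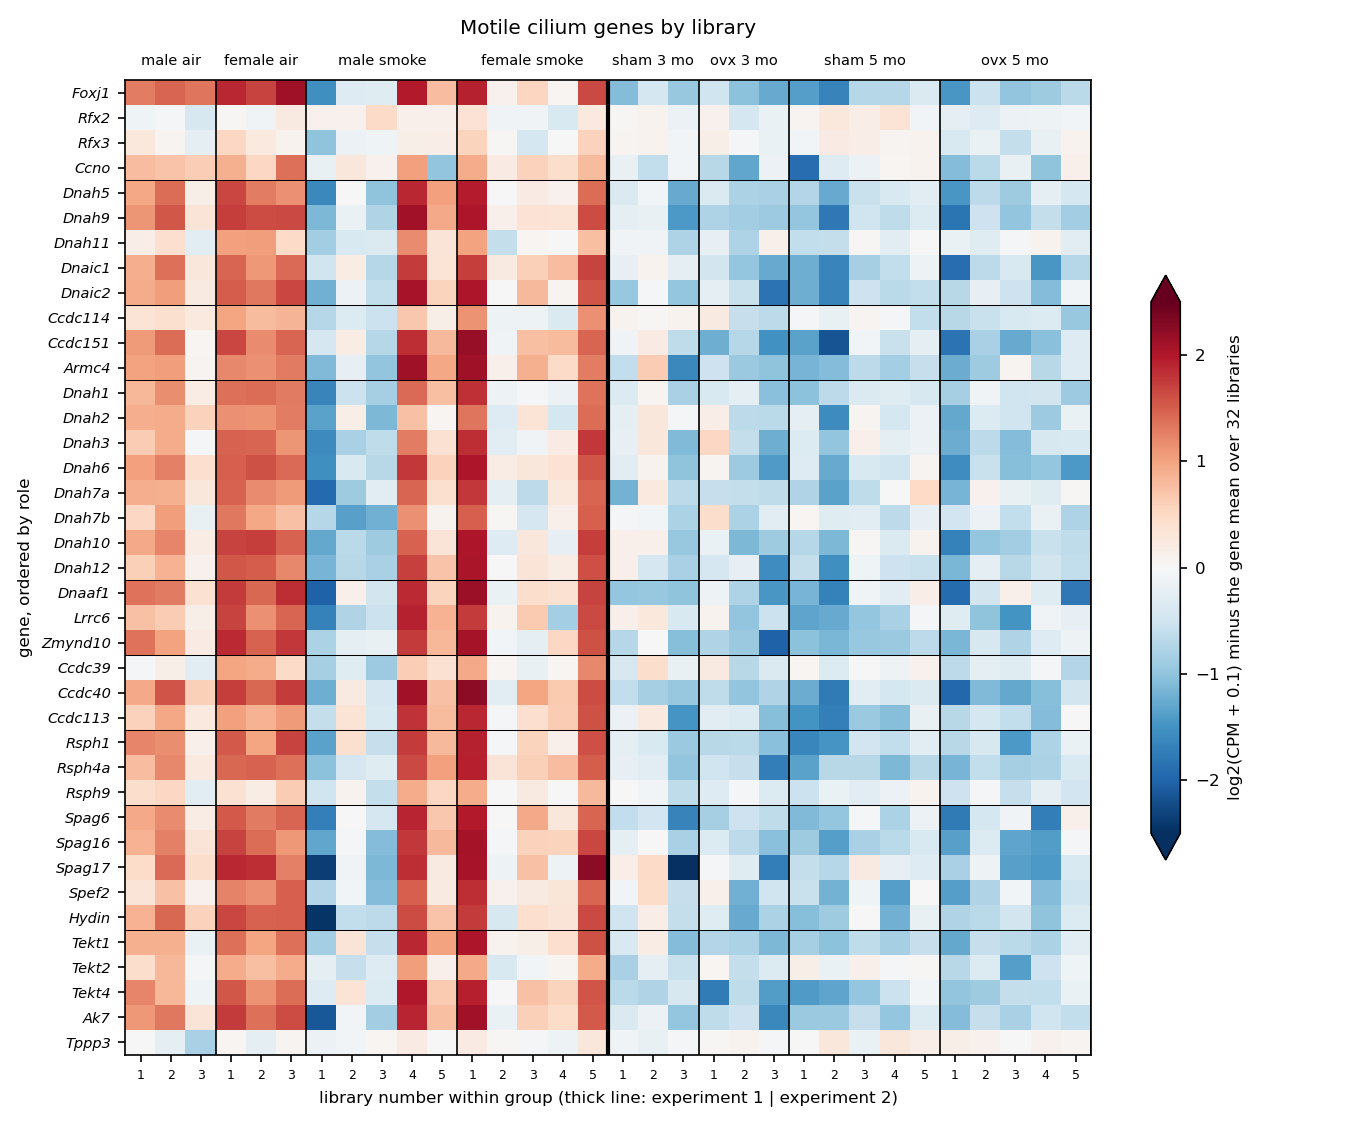
Level of each of the 39 genes (rows, by role) in each of the 32 libraries (columns, by group and library number), as log2(CPM + 0.1) minus the gene's mean, with red above and blue below the mean and colours saturated at the ends of the bar. Whole columns share a colour: female air 1 to 3, male smoke 4 and female smoke 1 and 5 are red in most rows, male smoke 1 is blue, and the rows of Rfx2 and Tppp3 stay pale.

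Foxj1 shows the course of most genes, except in male air. In air it was at 133, 118 and 158 CPM in females and 88.1, 99.2 and 91.2 CPM in males. After smoke it was at 139, 38.8, 52.8, 37.4 and 114 CPM in females and 12.5, 28.8, 29.5, 144 and 61.7 CPM in males. Foxj1 was high in all air libraries, while the smoke libraries of either sex held both the level of air and levels far below it. Male air was less even for the other genes, as library 3 was its lowest library for 38 of the 39 genes, but not for Foxj1. In experiment 2 Foxj1 was at 16.9, 26.5 and 18.8 CPM after sham surgery and 25.5, 17.8 and 15.05 CPM after ovariectomy at 3 months. At 5 months it was at 13.9, 11.4, 22.05, 22.1 and 28.1 CPM (sham) and 13.2, 25.0, 18.3, 19.4 and 22.8 CPM (ovariectomy). Every library of experiment 2 was below every air library. In order of the group means, female air (136 ± 20.2 CPM, SD, n = 3) was followed by male air (92.8 ± 5.72, n = 3), female smoke (76.2 ± 46.8, n = 5) and male smoke (55.2 ± 52.5, n = 5). The libraries of male air, female smoke and male smoke overlap, and the 4 groups of experiment 2, between 19.4 and 20.7 CPM, differ by less than their SDs. In bulk lung, fewer multiciliated cells and less RNA per cell cannot be told apart.

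**Figure D2:**
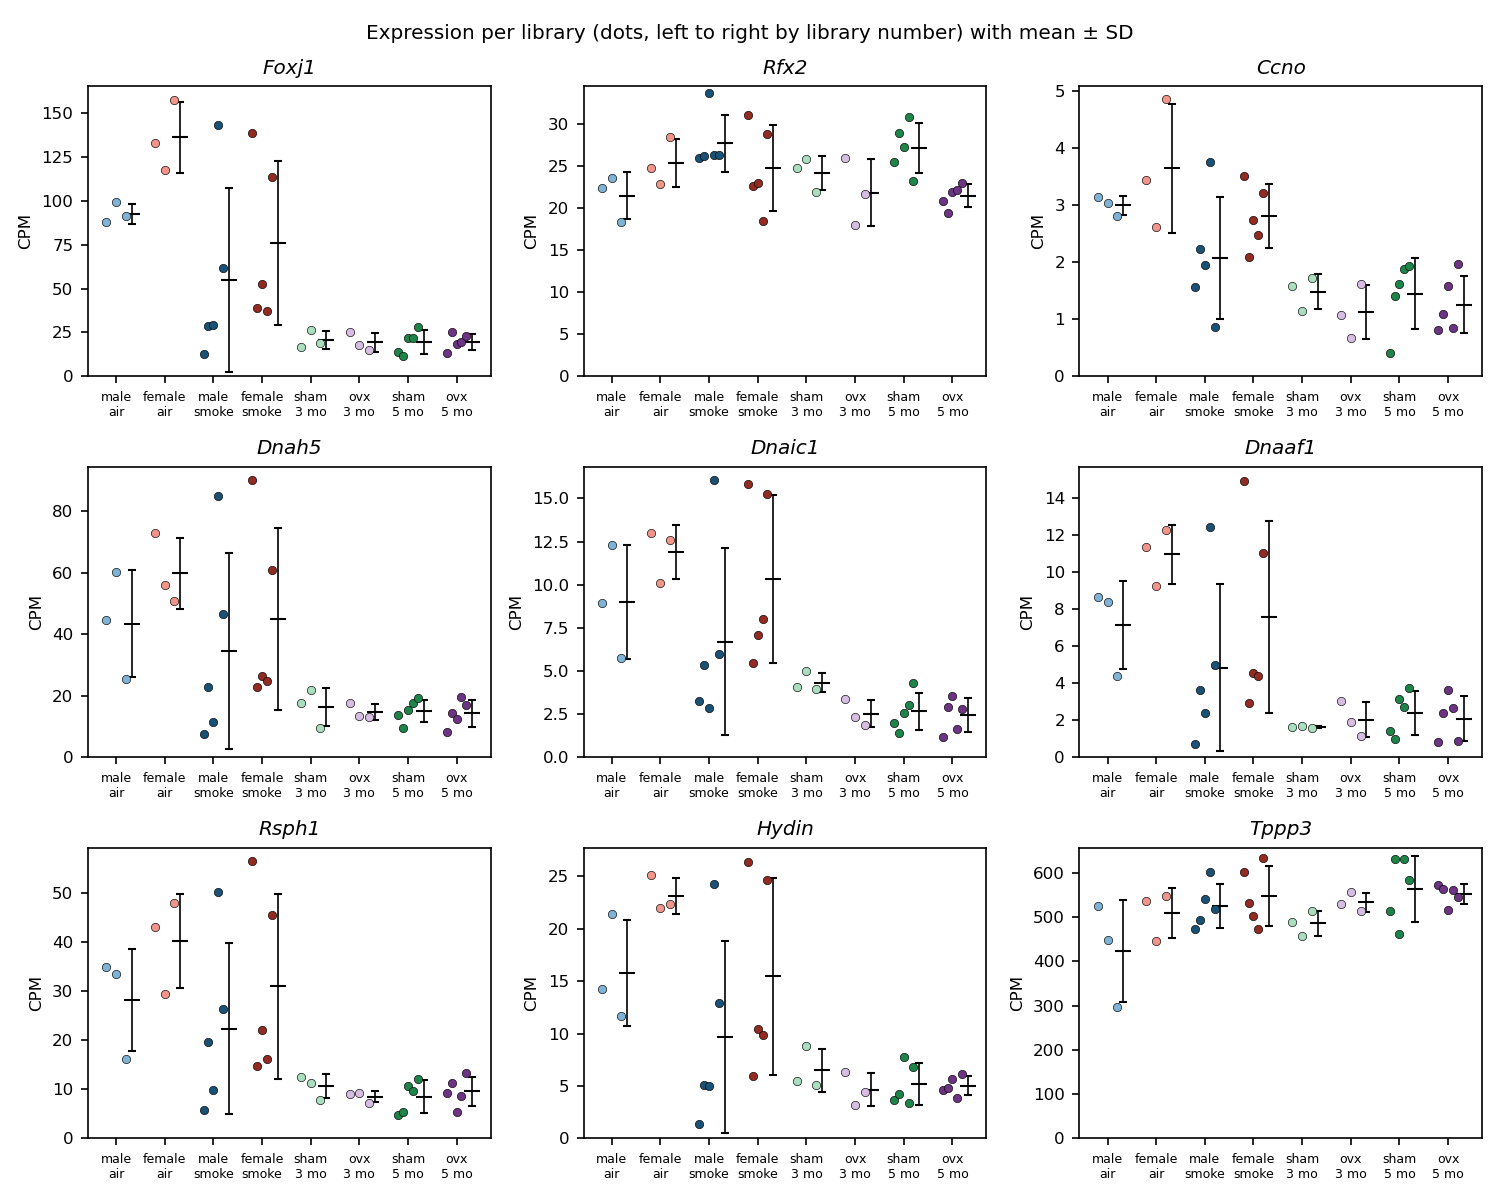
CPM of 9 of the genes in each library (dots, left to right by library number) with the mean and SD of each group, on linear axes from 0. Foxj1 and the structural genes share the pattern of high air groups, scattered smoke groups and low groups of experiment 2, Ccno follows it loosely, and Rfx2 and Tppp3 do not.

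The other genes taken as examples of each role followed Foxj1 to different degrees. Dnah9, an outer arm heavy chain, lay at 29.7 to 31.9 CPM in female air, 11.99 to 28.2 in male air, 10.5 to 39.4 in female smoke, 4.32 to 41.4 in male smoke and 2.63 to 8.43 in experiment 2. Dnaic2, an intermediate chain of that arm, lay at 21.02 to 26.8, 9.83 to 17.4, 8.34 to 34.3, 3.58 to 35.0 and 2.25 to 8.25 CPM in the same order of groups. For both outer arm genes the highest library of each smoke group was above all air libraries and experiment 2 was below all air libraries. Rsph4a, of the radial spoke head, lay at 24.3 to 25.8, 10.97 to 21.4, 11.6 to 36.1, 4.47 to 29.3 and 2.73 to 8.05 CPM. Spag6, of the central pair, lay at 17.0 to 20.1, 7.80 to 15.8, 6.82 to 27.3, 2.01 to 26.0 and 1.95 to 7.49 CPM. In these 2 genes, too, male and female air did not overlap. Tekt1, a filament protein of the doublets, lay at 17.5 to 22.9, 7.80 to 16.3, 9.29 to 35.6, 4.77 to 32.7 and 3.52 to 9.87 CPM. Ccdc113, a protein of the axoneme, the core of the cilium, lay at 16.7 to 19.1, 10.9 to 17.95, 8.92 to 34.0, 6.04 to 32.1 and 2.72 to 10.8 CPM. These 2 genes had smoke libraries above all of air in both sexes. Ccdc39, which with Ccdc40 forms the ruler that spaces the inner arms, had a narrower course, at 15.3 to 21.9, 9.11 to 12.1, 9.63 to 25.3, 5.79 to 16.8 and 6.59 to 14.8 CPM. Rfx3 differed less between groups, at 15.4 to 20.8, 12.4 to 17.3, 10.6 to 21.5, 7.16 to 16.1 and 9.56 to 16.6 CPM, but female air lay above all libraries of sham surgery at 3 months (at most 15.3 CPM) and of ovariectomy at 5 months (at most 15.27 CPM). Ccno was scarce, at 2.63 to 4.87, 2.82 to 3.14, 2.10 to 3.52, 0.862 to 3.76 and 0.407 to 1.98 CPM, with at most 82 counts in a library.

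The rest of the chosen examples are given in the same order of groups. Dnah5, an outer arm heavy chain, lay at 50.6 to 72.7 CPM in female air, 25.3 to 60.3 in male air, 22.8 to 89.9 in female smoke, 7.45 to 84.7 in male smoke and 8.26 to 21.9 in experiment 2. Dnah11, another heavy chain of that arm, lay at 10.4 to 15.6, 6.12 to 10.05, 4.93 to 15.1, 4.03 to 16.97 and 4.30 to 8.18 CPM. Experiment 2 was below all air libraries for Dnah5 but overlapped male air for Dnah11. Dnaic1, an intermediate chain, lay at 10.1 to 13.0, 5.76 to 12.3, 5.46 to 15.9, 2.84 to 16.1 and 1.19 to 5.00 CPM. The assembly factor Dnaaf1 lay at 9.22 to 12.3, 4.38 to 8.64, 2.94 to 14.9, 0.745 to 12.4 and 0.805 to 3.74 CPM. Both again had experiment 2 below all air libraries and smoke libraries above them. Hydin, of the central pair, lay at 21.96 to 25.1, 11.6 to 21.4, 5.93 to 26.4, 1.34 to 24.2 and 3.18 to 8.79 CPM. Rsph1, of the radial spokes, lay at 29.5 to 48.1, 16.2 to 34.9, 14.7 to 56.7, 5.81 to 50.2 and 4.75 to 13.4 CPM. For both, male smoke ran from within or below the range of experiment 2 to above male air. Ak7, an adenylate kinase of the cilium, lay at 33.9 to 44.2, 16.4 to 32.5, 11.6 to 55.9, 2.91 to 48.9 and 4.19 to 11.8 CPM. Tppp3 overlapped between experiment 2 and every group of experiment 1, at 445 to 548, 298 to 525.5, 474 to 634, 473 to 602 and 456 to 631 CPM.

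The same libraries were extreme for nearly all the genes. Of the 39 genes, 36 had their highest group median in female air. Male smoke 4 was the highest male smoke library for 37 genes and male smoke 1 the lowest for 30. Female smoke 1 was the highest of its group for 33 genes, female smoke 5 for the other 6, and female smoke 2 the lowest for 26. In male air, library 3 was the lowest for 38 genes. The spread inside the smoke groups was correspondingly wide. The median within-group SD of log2 CPM over the 39 genes was 1.12 in male smoke and 0.875 in female smoke, against 0.183 and 0.189 over 16096 genes. In male smoke, 32 of the 39 genes lay above the 90th percentile of all genes' SDs. In female air, where the 3 libraries were alike, the median SD was 0.196 against 0.165 for all genes. In male air it was 0.476 against 0.181.

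Whether smoke changed the genes in females was read from 5 smoke and 3 air libraries. None of the 39 genes passed edgeR's quasi-likelihood test with Benjamini-Hochberg adjustment over all genes, where 7.7% of 16361 genes were called (4.52% higher and 3.18% lower in smoke). At an unadjusted p under 0.05 the count was also 0, against 21.3% of all genes, and DESeq2 and limma called 0. The log2 fold change of smoke over air was negative in 36 genes, with a median of -0.36 against -0.013 for all genes, and the 2 groups overlapped for all 39 (among all genes, 7.76% were higher and 6.9% lower in smoke without overlap). Foxj1 had a log2 fold change of -0.83 (SE 0.64, 95% interval -2.22 to 0.56). The interval includes both no difference and a loss of more than 4-fold.

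Structural genes in females gave the same picture. Dnah5, the heavy chain of the outer dynein arm, was at 72.7, 56.1 and 50.6 CPM in air and at 89.9, 22.8, 26.3, 24.8 and 60.7 CPM in smoke. Smoke libraries 1 and 5 lay within or above the range of air, and libraries 2 to 4 at less than the lowest air library. The log2 fold change of Dnah5 was -0.40 (95% interval -1.91 to 1.10). Dnaic1, an intermediate chain of that arm, was at 13.0, 10.1 and 12.6 CPM in air and 15.9, 5.46, 7.09, 8.03 and 15.3 CPM in smoke, again with libraries 1 and 5 above the air range. For the radial spoke gene Rsph1 the log2 fold change was -0.36 (95% interval -1.71 to 0.98) and for Hydin, a central pair protein, -0.57 (95% interval -2.04 to 0.90). Ccdc113 and Tppp3 were nominally higher, at log2 fold changes of 0.11 (95% interval -1.06 to 1.28) and 0.11 (95% interval -0.19 to 0.41). Their intervals differ in width with the scatter of the smoke libraries, which was wide for Ccdc113 and narrow for Tppp3. Under 4 alternatives the log2 fold change of Ccdc113 in females was negative, down to -0.29, and under 6 in males, so it has no direction.

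In males, where 10.3% of 16361 genes were called between smoke and air (4.93% higher and 5.33% lower), none of the 39 genes was called by edgeR's quasi-likelihood test, DESeq2 or limma. At an unadjusted p under 0.05 there were 2 (23.2% of all genes), Rfx2 and Tppp3, both higher in smoke. The median log2 fold change was -0.32 against 0.0073 for all genes, and it was negative in 32 genes. Hydin was at 14.3, 21.4 and 11.6 CPM in air and at 1.34, 5.05, 4.95, 24.2 and 12.9 CPM in smoke. Libraries 1 to 3 of smoke lay below all air libraries, library 4 above them and library 5 among them. Its log2 fold change was -0.68 (95% interval -2.18 to 0.82). Dnaaf1, an assembly factor that folds dynein arms in the cytoplasm, was at 8.64, 8.38 and 4.38 CPM in air and 0.745, 3.64, 2.39, 12.4 and 4.97 CPM in smoke, the same order of libraries. Foxj1 had a log2 fold change of -0.74 (95% interval -2.14 to 0.67). The lowest value was that of the inner arm gene Dnah2, singled out after its values were seen, at -0.91. Without male smoke 4 the median over the genes was -0.92 and 9 had an unadjusted p under 0.05, with 0 called. For that fit the share of all genes at an unadjusted p under 0.05 was not counted.

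Rfx2, also singled out after its values were seen, went the other way in males. It was at 22.4, 23.6 and 18.3 CPM in air and at 25.9, 26.2, 33.7, 26.3 and 26.3 CPM in smoke. It was the only one of the 39 genes whose smoke and air libraries did not overlap in males (8.43% of all genes were higher in smoke without overlap). The log2 fold change was 0.38 (SE 0.15), with an adjusted p of 0.115 by edgeR's quasi-likelihood test with Benjamini-Hochberg adjustment (0.0660 to 0.412 over its alternatives). Tppp3 was at 525.5, 448 and 298 CPM in male air and at 473, 495, 541, 602 and 518 CPM in male smoke, where the groups overlap, with a log2 fold change of 0.32 (SE 0.14) and an adjusted p of 0.190 by the same edgeR test. The difference between the sexes in the response to smoke was called for 0 of the 39 genes (0.00611% of all genes), with 0 at an unadjusted p under 0.05 (5.75% of all genes) and 0 by DESeq2 and limma. The median of that difference (male minus female) was 0.0077, or -0.61 without male smoke 4.

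**Figure D3:**
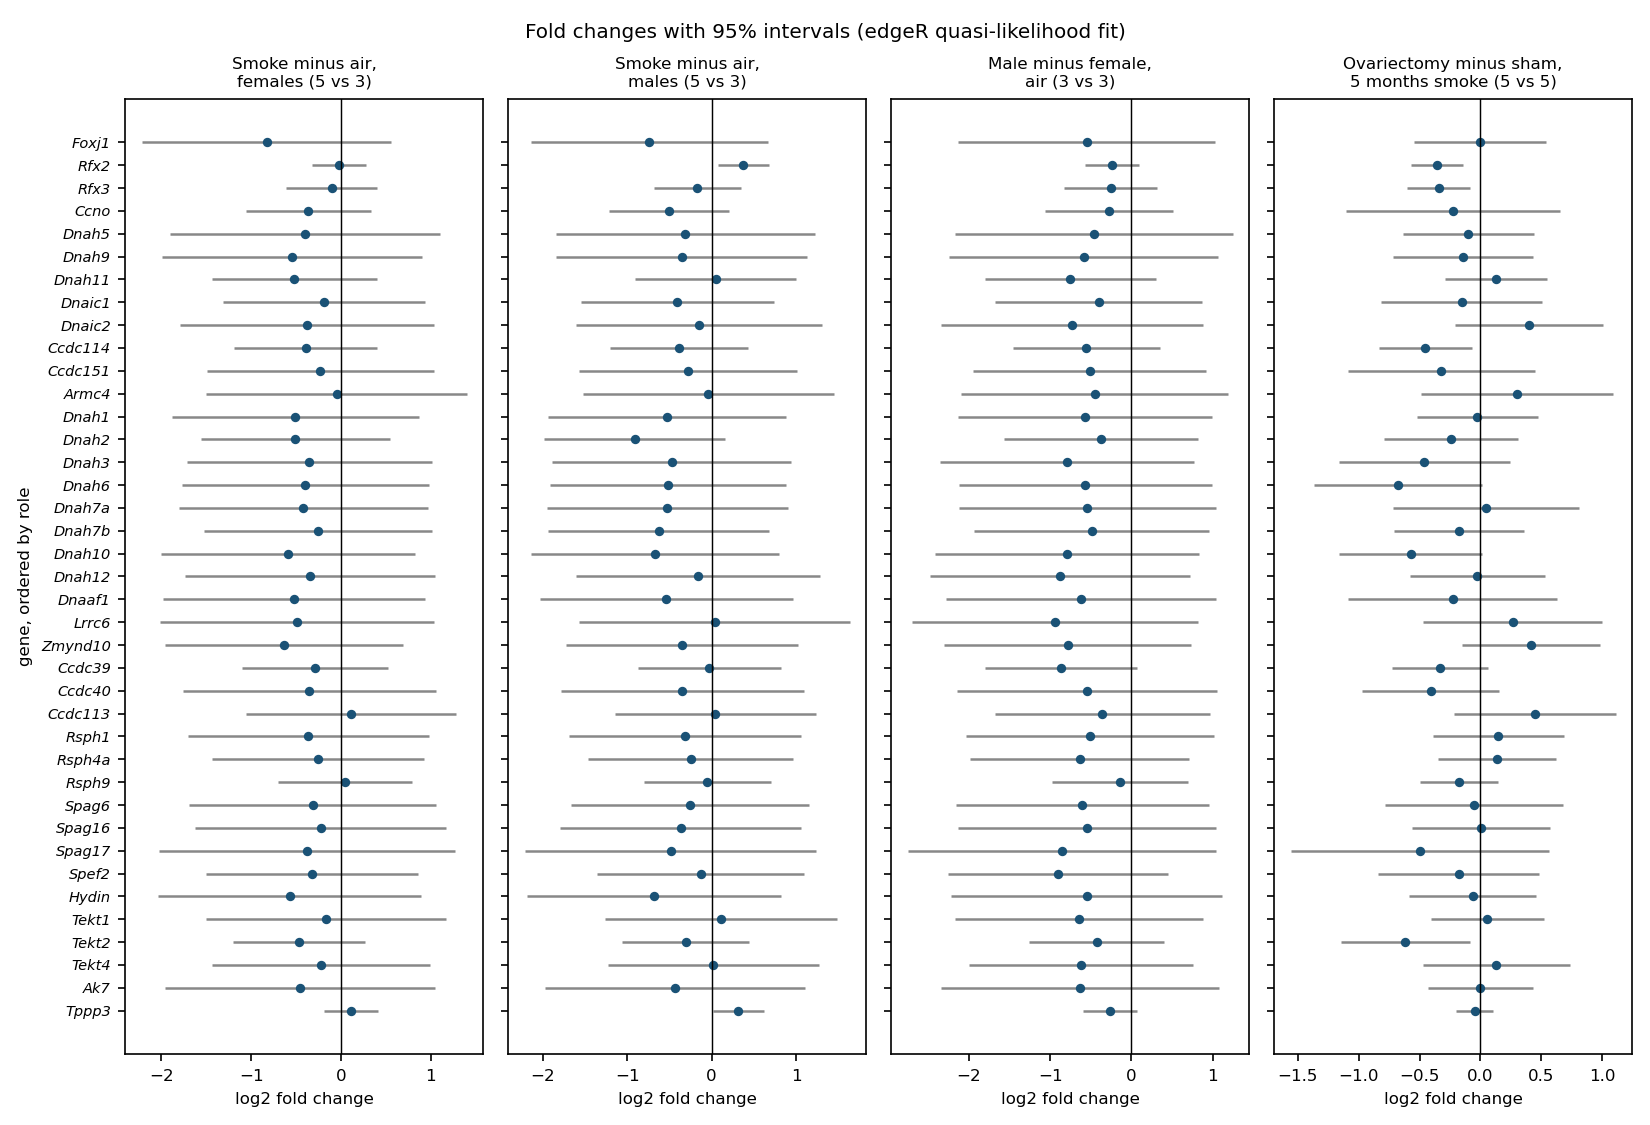
Log2 fold change (dots) with 95% intervals from the edgeR fit for the 39 genes in 4 comparisons, with the number of libraries in each panel title and a line at 0. In both smoke panels and in the sex panel most intervals are several log2 units wide and cross 0, those of Rfx2, Rfx3 and Tppp3 are short, and the panel of ovariectomy at 5 months has a finer axis.

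Between the sexes, the genes had lower levels in males than in females, but none was called. In air, all 39 had a negative log2 fold change of male over female, with a median of -0.55 against -0.0070 for all genes. Dnah11, an outer arm heavy chain, was at 8.34, 10.05 and 6.12 CPM in male air and 15.4, 15.6 and 10.4 CPM in female air, so that the 3 male libraries lay below the 3 female ones. Such separation held for 23 of the 39 genes, against 9.03% of all genes lower in males (7.57% were higher), among them Foxj1, Dnah9, Dnaic2, Rsph4a, Spag6, Hydin and Zmynd10. The 23 are not 23 observations, since they rest on the same 6 libraries and moved together in them. None was called by edgeR's quasi-likelihood test (0.177% of 16361 genes were), by DESeq2 or by limma, and 0 had an unadjusted p under 0.05 (9.27% of all genes). The test shares its spread with the scattered smoke groups. In a fit to the 6 air libraries alone, 24 of the 39 had an unadjusted p under 0.05, with 0 called and a lowest adjusted p of 0.0918 by the same edgeR test. That fit called 26 of 15522 genes. Its share of all genes at an unadjusted p under 0.05 was not counted, so the 24 cannot be set against one. In the fit to all 4 groups, Dnah11 had a log2 fold change of -0.75 (95% interval -1.81 to 0.30). For Foxj1 the log2 fold change was -0.55 (95% interval -2.14 to 1.03), and over the alternatives it lay between -0.64 and -0.42 with adjusted p-values from 0.0918 to 0.952 (Benjamini-Hochberg; edgeR, DESeq2 or limma).

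In smoke, 38 of the 39 genes had a negative log2 fold change of male over female, with a median of -0.54 against 0.00496 for all genes, but the male and female libraries overlapped for all 39 (1.03% of all genes were higher and 0.587% lower in males without overlap). Called genes numbered 0 by edgeR's quasi-likelihood test (0.189% of all genes), DESeq2 and limma, and 0 had an unadjusted p under 0.05 (7.74% of all genes). Foxj1 had a log2 fold change of -0.46 (95% interval -1.71 to 0.78). One library moved this comparison: without male smoke 4 the median over the genes was -1.20 and 29 of the 39 had an unadjusted p under 0.05, with 0 called and a lowest adjusted p of 0.271 by the same edgeR test. Male smoke 4 was the highest male smoke library for 37 of the 39 genes, and the 29 rest on the same libraries. For that fit the share of all genes at an unadjusted p under 0.05 was not counted.

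In experiment 2, removal of the ovaries was compared with sham surgery at both times. At 3 months (3 against 3 libraries) 0 of 16874 genes were called by edgeR's quasi-likelihood test, 0% of all genes, and so 0 of the 39. DESeq2 called 0 of the 39 and limma 0 of the 34 that passed its filter on low TPM in experiment 2, and 1 had an unadjusted p under 0.05 (9.29% of all genes). That gene was Ccdc151, which anchors outer dynein arms, at 3.68, 4.52 and 2.47 CPM after sham surgery and 1.62, 2.35 and 1.31 CPM after ovariectomy. Its libraries did not overlap, and neither did those of Dnaic1, at 4.06, 5.00 and 3.95 CPM against 3.38, 2.35 and 1.89 CPM. Lower without overlap were thus 2 of the 39 genes (7.98% of all genes) and higher 1, Tppp3 (7.32%). Their log2 fold changes were -1.01 (95% interval -2.01 to -0.013) for Ccdc151 and -0.77 for Dnaic1. The median over the genes was -0.31 against 0.0035 for all genes. Leaving out 1 library at a time, the count at an unadjusted p under 0.05 ran from 0 to 6, the highest without sham 3 or ovariectomy 1. For those fits the share of all genes was not counted. The median was 0.035 without the libraries over 100 CPM of Alb, where 1 ovariectomized library is left and is taken to vary like the other groups.

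At 5 months (5 against 5 libraries) 1.36% of 16874 genes were called and none of the 39 by edgeR's quasi-likelihood test and 0 of 34 by limma, while DESeq2 called 1, Rfx2, of the 38 to which it gave an adjusted p. At an unadjusted p under 0.05 there were 4 (15.5% of all genes), Rfx2, Rfx3, Ccdc114 and Tekt2, all lower after ovariectomy. Rfx2 was at 25.5, 29.0, 27.3, 30.8 and 23.2 CPM after sham surgery and 20.8, 19.5, 21.97, 22.1 and 22.9 CPM after ovariectomy, the only one of the 39 with groups that did not overlap (1.68% of all genes were lower and 2.43% higher without overlap). Its log2 fold change was -0.36 (SE 0.10), with an adjusted p of 0.0848 by edgeR's quasi-likelihood test with Benjamini-Hochberg adjustment and 0.0476 by DESeq2 (0.0476 to 0.197 over its alternatives). Rfx3 had a log2 fold change of -0.34, Ccdc114, an outer arm docking protein, -0.45, and Tekt2, a filament protein of the doublets, -0.62. By edgeR's quasi-likelihood test these 4 passed only before adjustment. Leaving out 1 library at a time, 3 to 7 genes did (7 without sham 2), and 9 did without the libraries over 100 CPM of Alb. The share of all genes at an unadjusted p under 0.05 was not counted for those fits. Foxj1, the master regulator, had groups that covered much the same range, as given above. The median over the genes was -0.10 against -0.012 for all genes, and it was -0.36 without the libraries over 100 CPM of Alb.

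Longer smoke exposure was asked about by comparing 5 with 3 months over both kinds of surgery. None of the 39 genes was called by edgeR's quasi-likelihood test (0.13% of 16874 genes were), 0 of 26 with an adjusted p by DESeq2 and 0 of 34 by limma, and 0 had an unadjusted p under 0.05 (13.4% of all genes). The median log2 fold change was -0.12, with 29 genes negative. Without the libraries over 100 CPM of Alb, which leaves 1 ovariectomized library at 3 months, the median was -0.16. Surgery and time interacted for 0 of the 39 genes (0% of all genes called; 0 of 39 by DESeq2 and 0 of 34 by limma), and 1 had an unadjusted p under 0.05 (5% of all genes). That was the assembly factor Zmynd10, whose log2 fold change after ovariectomy was 1.05 higher at 5 than at 3 months (adjusted p = 0.938 by the same edgeR test). Without sham at 3 months 3 the count at an unadjusted p under 0.05 was 4, in a fit where the share of all genes was not counted.

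Unoperated females and sham-operated females, both in smoke for 5 months, are a pair of groups that differs in the labels only by experiment and surgery. Of the 39 genes, 21 were higher in all 5 unoperated libraries than in all 5 sham libraries (7.65% of 16096 genes were), and 0 were lower (4.59%). Rsph1 was at 56.7, 14.7, 22.1, 16.2 and 45.5 CPM in the unoperated and 4.75, 5.33, 10.7, 9.68 and 12.2 CPM in the sham group. Ak7 was at 55.9, 11.6, 19.8, 17.9 and 37.9 CPM against 6.78, 6.80, 8.75, 6.66 and 10.3 CPM. Even the lowest unoperated library was above the highest sham library for both genes. The experiment and the surgery cannot be told apart in this pair, and no test was made between experiments.

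The genes varied together from library to library. For each gene, log2 CPM was correlated with the mean of the other 38, over 32 libraries that differ in group, experiment and depth. Pearson's r had a median of 0.938 and was over 0.9 for 25 of the 39 genes, led by Dnah9 (0.981). It had a median of 0.955 over the 16 libraries of experiment 1 and 0.668 over those of experiment 2, where the genes were low and varied less. After the group means were removed the median was 0.884. At the other end over the 32 libraries were Ccno (0.719), Rfx3 (0.644), Rfx2 (0.220) and Tppp3 (0.000622). The RFX factors are also used by cells without motile cilia. Tppp3, at its high and even level, did not follow the other genes over the 32 libraries. Its r was 0.367 in experiment 1, -0.403 in experiment 2 and 0.422 after the group means were removed. With the group means removed, r was 0.736 for Rfx3, 0.335 for Rfx2 and 0.320 for Ccno. In experiment 1 alone it was 0.832 for Rfx3, 0.128 for Rfx2 and 0.620 for Ccno.

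**Figure D4:**
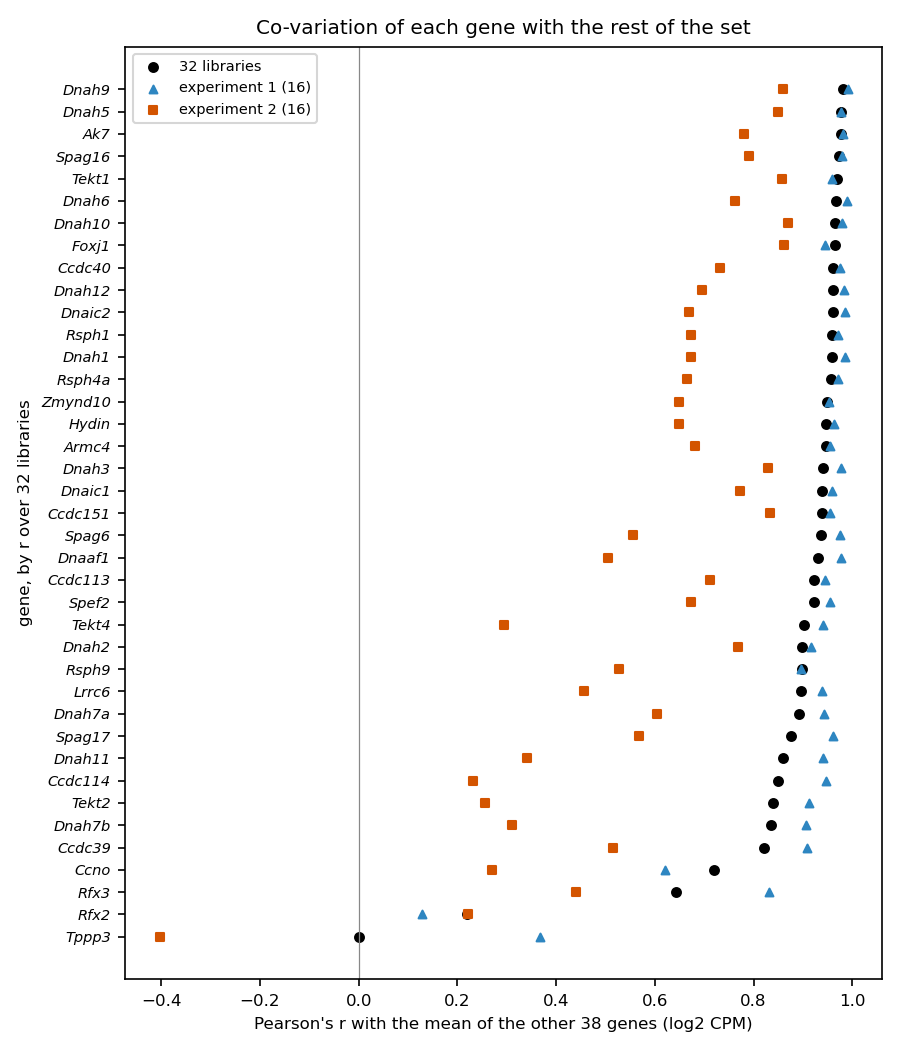
Pearson's r of each gene's log2 CPM with the mean of the other 38 genes, over 32 libraries (black), the 16 libraries of experiment 1 (blue) and the 16 of experiment 2 (orange), ordered by the first. Most genes are above 0.9 in black and blue and lower in orange, and Ccno, Rfx3, Rfx2 and Tppp3 form the lower end.

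Other genes of the same cells moved alike. Mean levels per library, here and below, are over the listed genes tested in at least 1 experiment, each gene centred on its own mean. A list of 98 other motile cilium genes, such as Drc1, Cfap and Rsph3 genes, had 95 tested in experiment 1 and 93 in experiment 2. Its mean level had an r of 0.996 with that of the 39 over 32 libraries. Of its members, 1 of 95 was called in smoke in females (Tuba1a, lower; 7.7% of all genes) and 1 of 95 in males (Dnah8, lower; 10.3%), while 0 were called by sex in air or smoke and 0 of 93 after ovariectomy, by edgeR's quasi-likelihood test. At an unadjusted p under 0.05 these counts were 3 and 2 in smoke (21.3% and 23.2% of all genes), 1 and 4 by sex in air and smoke (9.27% and 7.74%), and 10 and 8 after ovariectomy at 3 and 5 months (9.29% and 15.5%). None of these shares stands far above that of all genes. DESeq2 called 1 of them in smoke in females, 2 in males and 0 in the other 4 comparisons named here, and limma 0, 1 and 0. The list's median log2 fold change was -0.29 in smoke in females, -0.18 in males and -0.60 by sex in air. The 46 ciliary assembly genes that non-motile cilia share, such as the Ift and Bbs genes, had an r of 0.892 but a shallow course: their mean level spanned -0.225 to 0.391 log2 units, against -1.12 to 1.67 for the 39.

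The genes most like the 39, by r of log2 CPM with their standardised mean over 32 libraries, were Cdhr3 (0.981), Clic6 (0.979), Ubxn10 (0.970), Wdr78 (0.968), E230008N13Rik (0.968), Lrrc48 (0.968), Drc1 (0.966), 1700003M02Rik (0.966), Adgb (0.964), Adam28 (0.963), Lrrc23 (0.960) and Iqca (0.960). Of these 12 genes, 7 are in the list of other motile cilium genes, as are 38 of the 100 most alike of 16057 genes. The genes that ran most opposite were Lrrk1 (-0.879) and Csf1r (-0.871), the receptor that macrophages depend on.

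Marker lists named for several other cells of the airway moved with the cilium genes in experiment 1. Whether their transcripts came from airway cells was not tested. A list of 15 club cell markers (secretory cells of the airway) had 14 genes tested in each experiment. Its mean level had an r of 0.953 with that of the 39 over 32 libraries, 0.957 in experiment 1 and 0.575 in experiment 2. The summed level of all 15 was 17526 to 41480.1 CPM in male air, 36400.5 to 50925 in female air, 9433 to 43969 in male smoke and 13077 to 35008 in female smoke. In experiment 2 it was 7422 to 14115 CPM. Among the 15 only Kcnj16 was at 0 in every library of some groups. Of 14 club markers tested, 1 was called in smoke in females (Retnla, lower; 7.7% of all genes) and 1 in males (Gsta3, higher; 10.3%) by edgeR's quasi-likelihood test. The list of 12 markers of airway smooth muscle and cartilage, with 8 tested in each experiment, had an r of 0.864 (0.844 in experiment 1, 0.265 in experiment 2). The summed level of all 12 was 397 to 529 CPM in the air groups and 223 to 481 in the smoke groups of experiment 1, with Acan and Col9a1 at 0 in every group. Of 8 tested, 3 were called lower in smoke in females (Des, Acta2 and Hhip), against 3.18% of all genes. In males 0 were called, against 10.3% of all genes. Goblet cell markers had an r of 0.815 (0.838 and 0.659), and neuroendocrine and tuft cell markers 0.801 (0.881 and -0.134). Basal cell markers had the lowest r of the airway lists, 0.677 (0.527 and 0.481). Of 12 tested, 1, Icam1, was called higher in smoke in each sex (4.52% of all genes in females and 4.93% in males). Median log2 fold changes in smoke, females then males, were 0.43 and 0.36 for basal and 0.26 and -0.53 for goblet markers. They were -0.69 and -0.42 for club, -0.74 and -0.45 for muscle and cartilage, and -0.19 and -0.32 for neuroendocrine and tuft markers. Alveolar type 2 markers ran against the cilium genes, with an r of -0.809 (-0.745 and -0.285), although their mean level spanned only -0.357 to 0.224 log2 units. Alveolar type 1 markers had an r of -0.840 (-0.728 and -0.607). Of 11 tested, 6 were called higher in smoke in females (4.52% of all genes) and 9 in males (4.93%). The summed level of the type 1 markers was 9398 to 11547 CPM in the air groups and 11594 to 16819 CPM in the smoke groups of experiment 1, which do not overlap. RNA quality was read from Malat1, Neat1 and mitochondrial transcripts, 11 genes in all. Of these 4, all mitochondrial, were called higher in smoke in each sex (4.52% of all genes in females and 4.93% in males). Their list had median log2 fold changes of 0.39 in females and 0.40 in males. After ovariectomy at 5 months 1 was called (1.36% of all genes) and 9 had an unadjusted p under 0.05 (15.5%). The summed level of the 11 was 17271 to 23437 CPM in the air groups and 21527 to 27848 CPM in the smoke groups of experiment 1, which overlap. Their r with the cilium genes was -0.432 (0.043 and -0.022). After the group means were removed that r was 0.467, of the opposite sign. Total counts had an r of 0.067 (0.460 and -0.485), and of 0.135 after the group means were removed. How much of each lung sample was conducting airway is not in the labels. The part of the airway share, of the alveolar share and of RNA quality in the differences above was not tested.

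**Figure D5:**
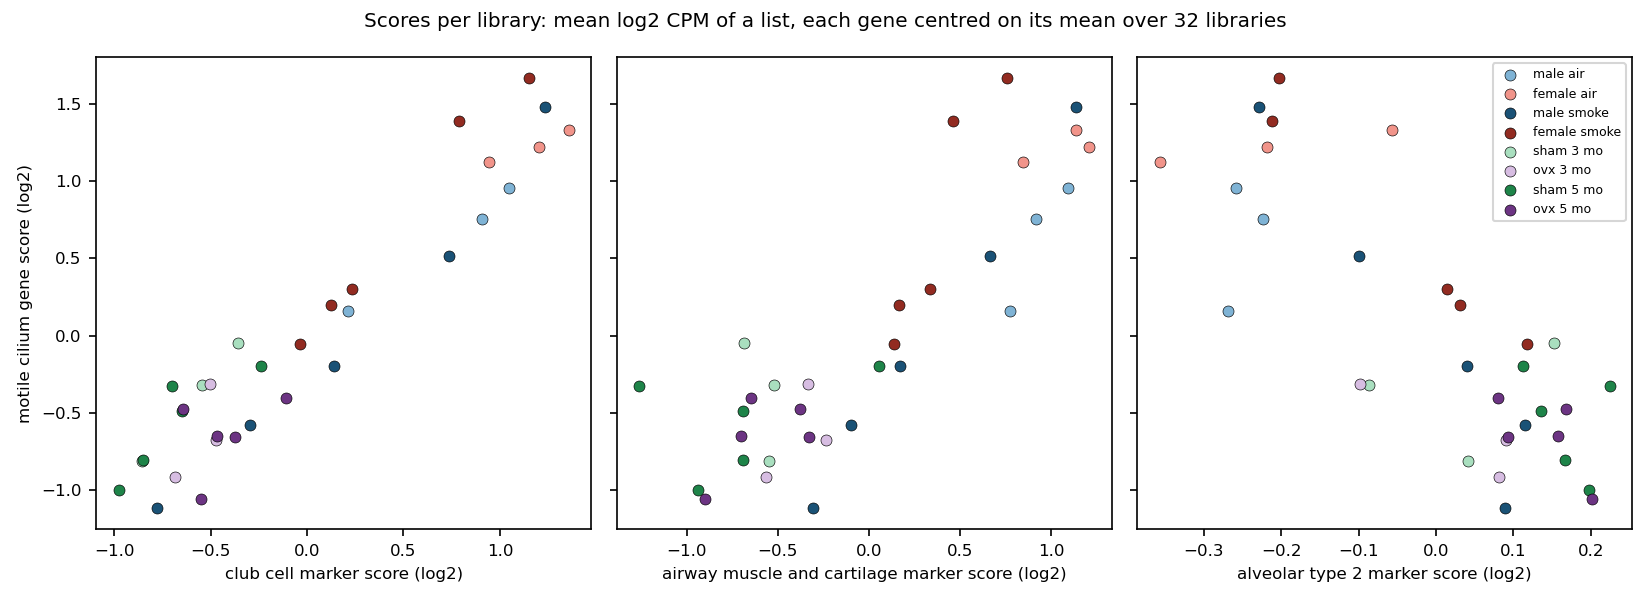
Mean centred log2 CPM of the 39 genes (vertical axis) in each of the 32 libraries against that of club cell markers, airway smooth muscle and cartilage markers, and alveolar type 2 markers (horizontal axes), coloured by group. The points rise together in the first and second panels and fall in the third. On the vertical axis male smoke libraries run from -1.12 to 1.48 and female smoke libraries from -0.055 to 1.67.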

How the data were processed

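Poly(A) RNA of mouse lung was sequenced in 32 libraries of 8 groups. Per the labels' protocols, total RNA came from a Trizol extraction and the NEBNext Ultra 2 kit was used for the libraries. The submitters' processing notes name FastQC and the builds GRCm38 and mm10. Which aligner and counter made the counts is not given in the sources used here. The deposited raw counts are whole numbers per Ensembl gene for 35275 genes. The deposited normalized table holds TPM for 35186 of them: 100% of the values matched raw counts divided by the length of the gene and brought to 1 total, within a tolerance of 1e-06. All sample columns were mapped to libraries by their labels, with 0 left unmapped. The 39 genes, the lists and the motifs were chosen with earlier results of these data known.

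Each experiment was fitted in R 4.3.3 with edgeR 4.0.16: filterByExpr (16361 and 16874 genes kept), TMM, 1 mean per group, robust quasi-likelihood F test, and Benjamini-Hochberg adjustment over all genes. Called genes had an adjusted p under 0.05. Shares of all genes at an unadjusted p under 0.05 were counted for the main fits only, not for the alternatives. Levels are CPM with TMM over all 32 libraries, and log2 CPM used a prior count of 2. Intervals are 95% intervals of the log2 fold change from the fit. The depth of 13790052 to 24497332 counts per library and the 3 or 5 libraries per group limit the precision. The genes whose values or ranges are given for every group of experiment 1 and for experiment 2 are a fixed panel (Foxj1, Rfx3, Ccno, Dnah5, Dnah9, Dnah11, Dnaic1, Dnaic2, Dnaaf1, Ccdc39, Ccdc113, Rsph1, Rsph4a, Spag6, Hydin, Tekt1, Ak7, Tppp3) with up to 6 called members per direction. Genes most like the 39 are the 12 with the highest r. Rfx2, Dnah2, Ccdc151, Ccdc114, Tekt2, Zmynd10, Spag17 and the genes named outside the 39, other than those 12, were named after their values were seen.

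Alternatives were RLE size factors, fits to the compared groups alone or to all 32 libraries, no filter or a strict one (1 CPM or more in 3 libraries), a block for the replicate number, limma 3.58.1 on log2(TPM + 1) of genes with at least 1 TPM in 3 libraries (34 of the 39 in experiment 2), DESeq2 1.42.0 and leaving out each library. Leaving out the libraries over 100 CPM of Alb was added after the data were seen. Shared sequence is the share of a gene's 31-base words in GENCODE M21 transcripts found in another gene. Promoter windows are from RefSeq, GRCm38.p6. Python 3.11.15 and matplotlib 3.10.9 drew the plots.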

Additional observations from a re-analysis of the deposited data

Results flagged for a closer look

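In groups of 5 libraries, 19 of the genes were checked for a library far from the others, in 76 checks of a gene in a group, and 3 were marked. Chance marks about 1 in 20 such groups. Dnaic1 was at 16.1 CPM in male smoke 4, where the next library was at 5.97 CPM. Dnaic2 was at 35.0 CPM in the same library, and the next at 12.4 CPM. Rfx2 was at 33.7 CPM in male smoke 3, and the next at 26.3 CPM. The 2 outer arm genes share their library with the high values of most other motile cilium genes, and Rfx2 does not.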

How the results depend on the processing

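Over 41 alternatives, in 173 combinations with a comparison, the number of the 39 genes called differed from that of the main comparison in 1: Rfx2 after ovariectomy at 5 months, where DESeq2 called 1 gene (log2 fold change -0.35, adjusted p = 0.0476, 1 of the 39 without an adjusted p). With the replicate number as a block, the median over the genes was -0.86 in place of -0.32 for smoke in males, -0.75 in place of -0.36 for smoke in females and -0.78 in place of -0.54 for sex in smoke, and 0 of the 39 genes were called in any comparison. Air groups hold only numbers 1 to 3, so under the block smoke against air rests mostly on smoke libraries 1 to 3. The numbers do not pair the libraries: deviations of same-numbered libraries had a median r of 0.032 (from -0.26 to 0.19) in experiment 1 and -0.0096 (from -0.32 to 0.18) in experiment 2. Leaving out 1 library at a time, the median ran from -0.92 to -0.096 for smoke in males, from -0.66 to -0.18 for smoke in females, from -1.20 to -0.20 for sex in smoke, from -0.80 to -0.36 for sex in air and from -0.61 to 0.38 for the interaction of sex and smoke. The lowest values for smoke in males, sex in smoke and the interaction are those without male smoke 4. In experiment 2 it ran from -0.43 to -0.016 for ovariectomy at 3 months and from -0.19 to 0.024 at 5 months. Without the libraries over 100 CPM of Alb, the median for ovariectomy at 3 months was 0.035 in place of -0.31, and the interaction of surgery and time had a median of -0.32 in place of 0.16, with 0 called. Ccdc113 changed sign. In females it was -0.29 with the block, -0.023 with limma, and -0.20 and -0.056 without female smoke 1 and 5 (-0.20 to 0.29 leaving out each library). In males it was -0.49 with the block, -0.22 with limma, -0.0071 without the Alb libraries, and -0.49, -0.12 and -0.0049 without male smoke 4, male air 3 and male air 1 (-0.49 to 0.23 leaving out each library). The cause was not tested. Smoke groups of these sizes and spreads gave 95% intervals wider than 2 log2 units for most genes, so moderate differences were not detectable. Genes under 10 counts in some libraries, such as Ccno and Spag17, are imprecise.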
